A study of Mus musculus with 4 samples.

Results

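The chromatin around 10 genes of the bone morphogenetic protein (BMP) pathway was examined in differentiating mouse embryonic stem cells. The genes were the ligands Bmp2, Bmp4, Bmp7 and Gdf7, the extracellular antagonists or modulators Nog and Bmper, the inhibitory Smads Smad6 and Smad7, and the target genes Id1 and Id3. ATAC-seq peaks of 4 libraries were merged into 40910 union regions, and each region was assigned to the nearest transcript start of a protein-coding gene within 100 kb, which left 35038 regions. Of these, 63 belonged to the 10 genes, and each gene had at least 2. The assignment goes by position only and does not show that a region regulates the gene it is named for. A region is named here by its gene and its distance from that start, with plus for downstream and minus for upstream, and a region that covers the start is called the start region.

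All 4 libraries came from the wild-type (WT) line ES-E14TG2a, which consists of mouse embryonic stem cells, under the same cardiogenic differentiation, and each was made from 15000 cells. There were 2 libraries on day 2 (d2) and 2 on day 4 (d4), from independent differentiation experiments. By the protocol, d2 followed 48 h as aggregates in serum-free medium without added factors, and d4 followed a further 40 h of reaggregation with human Activin A at 8 ng/ml, human BMP4 at 0.5 ng/ml and human VEGF at 5 ng/ml. The d4 cells had thus received a BMP ligand, together with both other factors and with time, and these cannot be told apart. The labels do not say whether the d4 cells had already entered the following endothelial induction medium. The paper describes its higher VEGF and its forskolin as added at d4, to raise an endothelial share that was small at that stage. ATAC-seq uses a transposase that inserts adapters into accessible DNA, and the cultures were sequenced as mixtures, so a peak that appears in more cells cannot be told apart from one that is more open in each cell.

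BMPs are secreted ligands that bring together type I and type II serine/threonine kinase receptors, which phosphorylate SMAD1, SMAD5 and SMAD9. With SMAD4 these proteins enter the nucleus and bind target genes, among which the Id genes, encoding inhibitors of helix-loop-helix transcription factors, are the best known. The pathway limits itself at several levels: noggin binds ligands outside the cell, and SMAD6 and SMAD7, which are themselves induced, block receptors and receptor Smads. In the embryo BMP signaling patterns the mesoderm, including the precursors of heart, blood and endothelium.

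The peak lists held between 21299 and 26865 peaks, and the smallest summit pileup called was 6 in both d2 libraries and 7 in both d4 libraries. No peak therefore means that none was called, not that the chromatin was closed. As a check of the labels, promoter peaks were looked up for marker genes. Of 5 pluripotency genes, 4 and 5 had a promoter peak in d2 replicates 1 and 2, against 1 and 2 in the d4 replicates. Of 4 early mesoderm genes, 3, 4, 1 and 3 had one in the same order of libraries, and of 5 endothelial and blood genes 3, 3, 5 and 3. For 2 endoderm genes the numbers were 2, 2, 1 and 1, and for 2 neural genes 1 in each library, so promoter peaks at markers of several cell types were found in each library.

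A region is called gained here where both d4 libraries and no d2 library had a peak, lost where the reverse held, and shared where all 4 libraries had one. Gained regions numbered 9 of 63 (14.3%), against 8.48% of all assigned regions, and lost regions numbered 3 (4.76%), against 13.2% of all. The 9 gained regions lay at Bmp2 (3), Smad6 (3), Bmp4, Gdf7 and Nog, and the 3 lost regions at Bmper (2) and Id1. Shared regions numbered 14 (22.2%), against 31.9% of all, and a further 11 (17.5%) had a peak in 3 of 4 libraries, against 8.23% of all. The other 26 (41.3%) had a peak in a single library, against 34.5% of all, and no region had a peak in 1 library of each day, against 3.65% of all. The shares were not tested against each other, because peak lists hold no reads and an exact permutation of 2 against 2 libraries cannot reach a p below 0.33. Promoters were fewer among the members (30.2% against 50.9% of all), so counts away from promoters are given further below.

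The counts of gained and lost regions depended on single libraries, as the definition asks for a peak in both replicates. Where d4 was represented by 1 library, 15 regions were gained, whichever of the d4 replicates was left out. Lost regions rose to 5 on leaving out d4 replicate 1 and to 7 for d4 replicate 2. On leaving out d2 replicate 1 there were 11 gained and 13 lost regions, so lost regions then outnumbered gained ones, and for d2 replicate 2 there were 12 and 9. The shares of all regions at these settings are not given here, so these counts show only how far the numbers move. All 12 gained and lost regions were still called at a −log10 q of at least 5, and their peaks in the 2 replicates overlapped by at least 50%. At a −log10 q of at least 10, 7 of the 9 gained and 1 of the 3 lost remained. Counted anew at that threshold, where weaker peaks no longer count, the 10 genes had 8 gained and 4 lost regions. Bmp2 then had 3 gained and 2 lost, and Bmp4 had 1 lost. With a 50% reciprocal overlap of replicates Bmp2 likewise had 2 lost regions.

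**Figure D1:**
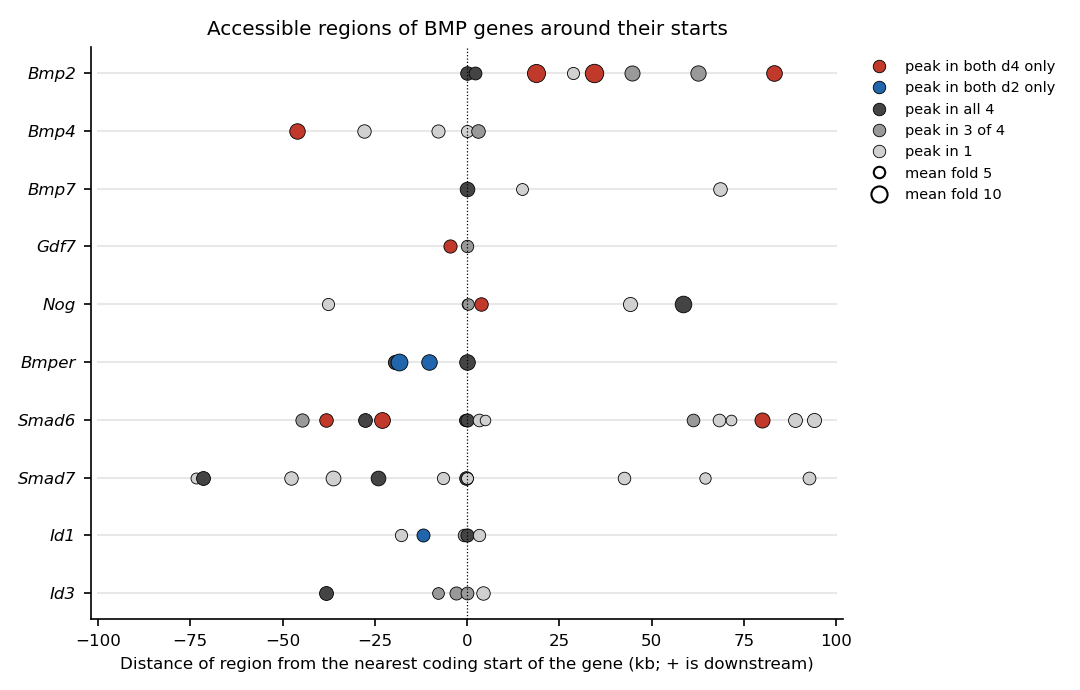
Map of the 63 regions of 10 BMP pathway genes. The horizontal axis is the distance in kb from the gene's nearest coding start, each circle is 1 region, its area grows with the mean fold over the libraries that had a peak, and its color gives the libraries with a peak. The gained regions (red) lie at Bmp2, Bmp4, Gdf7, Nog and Smad6 and the lost regions (blue) at Bmper and Id1, all of them 3.8 kb or more from the start.

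The sequences below are from gained and lost regions of Bmp2, Smad6 and Bmper, the genes with at least 2 such regions. For each gene the 2 with the highest fold in the weaker replicate are shown, cut to 100 bp on each side of the highest summit and inside the region. They are from GRCm38 (mm10), plus strand, 5′ to 3′. Capitals mark GATAA (the core bound by GATA factors), GGAATG (TEAD) or TGANTCA (AP-1), on either strand, and none was found in the last of the 6.
Bmp2 +18.6 kb, gained, chr2:133570864-133571036: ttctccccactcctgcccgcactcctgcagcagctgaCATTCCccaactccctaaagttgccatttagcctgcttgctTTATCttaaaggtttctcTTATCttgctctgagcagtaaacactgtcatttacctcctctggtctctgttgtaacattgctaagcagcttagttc
Bmp2 +34.3 kb, gained, chr2:133586482-133586682: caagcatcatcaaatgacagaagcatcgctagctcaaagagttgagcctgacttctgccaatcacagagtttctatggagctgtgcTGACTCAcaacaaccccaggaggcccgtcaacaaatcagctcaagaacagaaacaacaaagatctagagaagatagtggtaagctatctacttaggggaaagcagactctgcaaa
Smad6 -23.0 kb, gained, chr9:64045212-64045412: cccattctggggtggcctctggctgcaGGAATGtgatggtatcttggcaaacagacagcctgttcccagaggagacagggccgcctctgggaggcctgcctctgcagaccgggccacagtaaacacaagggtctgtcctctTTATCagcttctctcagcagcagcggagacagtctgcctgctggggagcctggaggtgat
Smad6 +79.9 kb, gained, chr9:63941893-63942093: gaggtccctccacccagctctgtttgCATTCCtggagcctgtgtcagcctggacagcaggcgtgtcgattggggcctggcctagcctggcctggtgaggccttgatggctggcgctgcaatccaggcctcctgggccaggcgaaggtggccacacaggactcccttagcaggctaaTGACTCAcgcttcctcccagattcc
Bmper -18.4 kb, lost, chr9:23204354-23204554: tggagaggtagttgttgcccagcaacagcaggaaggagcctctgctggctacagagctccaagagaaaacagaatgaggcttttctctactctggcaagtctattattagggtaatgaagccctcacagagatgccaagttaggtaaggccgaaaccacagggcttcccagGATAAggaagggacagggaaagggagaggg
Bmper -10.4 kb, lost, chr9:23212464-23212628: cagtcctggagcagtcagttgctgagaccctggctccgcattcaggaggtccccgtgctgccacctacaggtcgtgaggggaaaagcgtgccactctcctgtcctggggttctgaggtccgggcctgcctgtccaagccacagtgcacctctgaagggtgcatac

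The next 3 are the member regions that held a composite of the GC-rich site of SMAD1 and SMAD5 and the SMAD4 box, GGCGCC followed after 5 bases by GTCT, a layout known from BMP-responsive elements of Id genes. They were chosen for the letters and not for a change between days. Capitals mark the composite with its spacer, and up to 20 bases of the region are shown on each side, plus strand of GRCm38.
Id1 +3.2 kb, peak in d2 replicate 2 only, chr2:152739451-152739505: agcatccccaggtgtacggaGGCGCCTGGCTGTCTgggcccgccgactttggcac
Id3 -2.9 kb, peak in 3 of 4 libraries, chr4:136140520-136140571: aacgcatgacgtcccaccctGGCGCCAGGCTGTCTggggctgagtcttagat
Id3 +4.3 kb, peak in d2 replicate 2 only, chr4:136147961-136148015: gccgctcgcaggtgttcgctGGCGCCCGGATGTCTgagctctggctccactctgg

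Bmp2, which encodes a ligand needed for heart and extraembryonic mesoderm, had 8 regions, none of them upstream of its start. Its regions were 3 gained, 2 shared, 2 in 3 of 4 libraries and 1 in a single library. At least 3 gained and no lost regions were found at 80 of the 15060 coding genes with a region (0.531%), Bmp2 and Smad6 among them. That share depends on the number of regions per gene, as genes with fewer than 3 cannot reach it. Bmp2 had 8 and Smad6 had 14.

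All 3 gained regions of Bmp2 were intergenic and downstream of the gene. Fold below is the fold enrichment of the strongest peak of a region, the pileup at the summit over the local background with 1 added to each. At +18.6 kb (chr2:133570777-133571036), whose letters are shown above, fold was 11.4 in d4 replicate 1 and 13.7 in d4 replicate 2, with pileups of 24 and 33. At +34.3 kb (chr2:133586475-133586725) it was 13.3 and 12.9, with pileups of 30 and 29. These were the 2 strongest gained regions of the 10 genes, between the 81.3rd and the 92.1st percentile of fold among the peaks of their library. At +83.3 kb (chr2:133635452-133635773) fold was 9.95 and 8.88.

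Between the gained regions of Bmp2 lay regions already called at d2. The regions at +44.6 kb and +62.6 kb were called in both d2 libraries and in d4 replicate 2. At +44.6 kb fold was 9.10 and 9.11 at d2 and 8.03 in d4 replicate 2, and at +62.6 kb it was 8.29, 10.7 and 8.03. A single peak at +28.8 kb was called in d4 replicate 1, with a fold of 5.70 and a pileup of 9. The Bmp2 start region (chr2:133552093-133553265) was called in all 4 libraries, with folds of 7.87 and 8.70 at d2 and 5.31 and 6.64 at d4.

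Bmp4, whose product was itself among the added factors, had 5 regions, of which 1 was gained and none was shared. The gained region (chr14:46436721-46437052) lay 46.1 kb upstream of Bmp4, at the promoter of the noncoding gene Gm15221, with folds of 9.69 and 8.76 in d4 replicates 1 and 2. Its assignment to Bmp4 therefore passes over a nearer noncoding start. The Bmp4 start region was called in d2 replicate 2 only (fold 5.65). A region at +2.9 kb, within the Bmp4 gene and at the promoter of the antisense gene Gm15222, was called in 3 of 4 libraries, with folds of 7.33, 7.66 and 6.32 and no peak in d4 replicate 1. The regions at -27.9 kb and -7.8 kb were called in d2 replicate 1 only, with folds of 6.93 and 6.64.

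Bmp7, a ligand of the same family as Bmp5 and Bmp6, had no gained and no lost region. Its start region (chr2:172939995-172940834) was shared, with folds of 9.58 and 7.89 at d2 and 6.19 and 9.25 at d4, and the days overlapped. Its 2 other regions, both intronic, were each called in a single library, at +15.0 kb in d4 replicate 2 (fold 5.44) and at +68.5 kb in d2 replicate 2 (fold 7.14).

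Gdf7, a ligand best known from the roof plate of the neural tube, had 2 regions. One, intergenic and 4.5 kb upstream (chr12:8306491-8306705), was gained with folds of 6.48 and 6.92 and pileups of 15 in both d4 libraries, near the weaker end of the gained regions. The Gdf7 start region was called in 3 libraries, with folds of 5.20 and 7.06 at d2 and 5.57 in d4 replicate 1.

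Ligand genes together had 18 regions, with 5 gained (3 of them at Bmp2), none lost and 3 shared. The antagonists had 10 regions, with 1 gained, 2 lost and 3 shared. Of all assigned regions, 8.48% were gained, 13.2% lost and 31.9% shared, and counts this small do not rank the roles. In the wider list described below, further ligands had 2 gained and 2 lost regions of 17, and further antagonists 6 gained and 4 lost of 35.

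Nog encodes noggin, which binds BMP ligands and keeps them from their receptors. Its gained region (chr11:89298312-89298491) lay 3.8 kb downstream of the start, beyond the gene, with folds of 6.91 and 7.11 in the d4 libraries. The Nog start region was called in d2 replicate 1 only, with a fold of 4.35, and the adjoining region at +0.4 kb in 3 libraries, with folds of 4.70 and 4.63 at d2 and 5.90 in d4 replicate 1. The region of Nog with the highest fold was a shared one 58.6 kb downstream (chr11:89243464-89243741), with folds of 10.1, 12.5, 9.27 and 10.7. Its fold was thus above that of either region at the start wherever these were called. By pileup the order differed: in d4 replicate 1 it was 16 at +58.6 kb and 19 at +0.4 kb. The gained region at +3.8 kb had pileups of 21 in both d4 libraries, against 16 and 20 at +58.6 kb. The last 2 regions of Nog, at -37.7 kb and +44.2 kb, were called in d4 replicate 2 only, with folds of 5.73 and 7.67.

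Bmper encodes a secreted protein that binds BMPs and was named for its expression in endothelial precursors. It was the only 1 of the 10 genes with more than 1 lost region, and it had no gained region. At least 2 lost and no gained regions were found at 513 of 15060 coding genes (3.41%). This share, too, depends on the number of regions per gene, which was 4 for Bmper. The region at -18.4 kb (chr9:23204289-23204657), whose letters are shown above, had folds of 10.9 in both d2 libraries, with pileups of 26 and 30. At -10.4 kb (chr9:23212408-23212628) the d2 replicates differed, with folds of 6.38 and 12.2 and pileups of 9 and 18.

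Next to the lost region at -18.4 kb, a separate region of Bmper at -19.5 kb (chr9:23203202-23203591) was shared. Its folds were 6.42 and 6.69 at d2 and 7.17 and 11 at d4, so both d4 values were above both d2 values. The Bmper start region (chr9:23222550-23223752) was shared, with folds of 10.7 and 10.8 at d2 and 7.98 and 8.09 at d4. In both d4 libraries, 2 separate peaks were called within the Bmper start region, where each d2 library had 1.

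Smad6 and Smad7 encode the inhibitory Smads, SMAD6 acting mainly on BMP receptors and SMAD7 on BMP and TGF-β receptors alike. Together they had 25 regions, with 3 gained, none lost and 6 shared. The 3 gained regions were all at Smad6. Of all assigned regions, 8.48% were gained, 13.2% lost and 31.9% shared.

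Smad6 had 14 regions, the most of the 10 genes. The gained region at -23.0 kb (chr9:64045091-64045608) was the strongest of its 3, with folds of 9.74 and 9.46 and pileups of 36 and 31, the 36 being the highest pileup of any gained region here. At +79.9 kb (chr9:63941761-63942126), beyond the 3′ end of Smad6, folds were 7.06 and 10.4. At -38.1 kb (chr9:64060178-64060474) they were 7.18 and 6.93. All 3 gained regions were intergenic, and all 3 had a nearer start of a noncoding gene than that of Smad6.

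Smad6 had 3 shared regions. Its start region (chr9:64021872-64022294) had folds of 5.60 and 6.34 at d2 and 8.28 and 6.38 at d4. The adjoining region at -0.6 kb had folds of 5.27, 6.54, 4.44 and 5.96. The region at -27.8 kb (chr9:64049848-64050319), at the promoter of the noncoding gene 1110036E04Rik, had folds of 7.57 and 9.49 at d2 and 5.57 and 6.73 at d4, so that both values fell below those of d2. It lay between the gained regions at -38.1 kb and -23.0 kb. A further 2 regions, at -44.7 kb and +61.2 kb, were called in 3 libraries, with folds between 4.77 and 7.86. The other 6, from +3.3 kb to +94.1 kb, were each called in a single library: 3 peaks were from d4 replicate 1, 2 from d2 replicate 2 and 1 from d2 replicate 1.

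Smad7 had 11 regions, none of them gained or lost. Its difference from Smad6 was not tested. Of its regions 3 were shared, at -71.5 kb, -24.1 kb and -0.3 kb. The region at -24.1 kb had folds of 8.38 and 5.96 at d2 and 8.94 and 9.97 at d4. The region at -0.3 kb, just upstream of the start, had folds of 7.15 and 7.88 at d2 and 6.93 and 6.77 at d4. The Smad7 start region itself was called in d2 replicate 2 only, with a fold of 5.48. That region and 7 others made up the 8 single-library regions of Smad7, of which 4 came from d2 replicate 2, 3 from d4 replicate 2 and 1 from d4 replicate 1.

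Id1 and Id3, the target genes, had 10 regions together, with none gained, 1 lost and 2 shared. These are too few to set against the shares of all assigned regions, 8.48%, 13.2% and 31.9%. The lost region lay 11.9 kb upstream of Id1 (chr2:152723893-152724303) with folds of 5.81 and 7.22, the lowest of the 3 lost regions in the weaker replicate. The Id1 start region (chr2:152736050-152736408) was shared, with folds of 4.41 and 7.11 at d2 and 6.82 and 8.23 at d4. The replicates at d2 thus differed by more than those at d4. The promoter region at -0.9 kb was called in 3 libraries, with folds of 6.64 in d2 replicate 1 and 5.88 and 5.59 at d4. The regions at -17.9 kb and +3.2 kb were called in d2 replicate 1 and d2 replicate 2 alone, with folds of 5.80 and 5.85.

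Id3 had 5 regions, and d2 replicate 1 stood apart at them. Of the 5 regions, d2 replicate 1 had a peak at 1, d2 replicate 2 at all 5 and each d4 library at 4. The 3 regions at -7.9 kb, -2.9 kb and +0.1 kb were all without a peak in d2 replicate 1 only. At +0.1 kb (chr4:136143604-136143982), the region nearest the start, folds were 6.84 in d2 replicate 2 and 5.64 and 6.37 at d4. At -2.9 kb, which holds the composite shown above, they were 7.86, 5.70 and 6.14, and at -7.9 kb they were 5.60, 5.40 and 4.89. Without d2 replicate 1 these 3 regions would count as shared. The 1 shared region of Id3, at -38.1 kb, had folds of 5.22 and 12.0 at d2 and 7.09 and 5.47 at d4, so the largest gap at this region was between the d2 replicates.

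**Figure D2:**
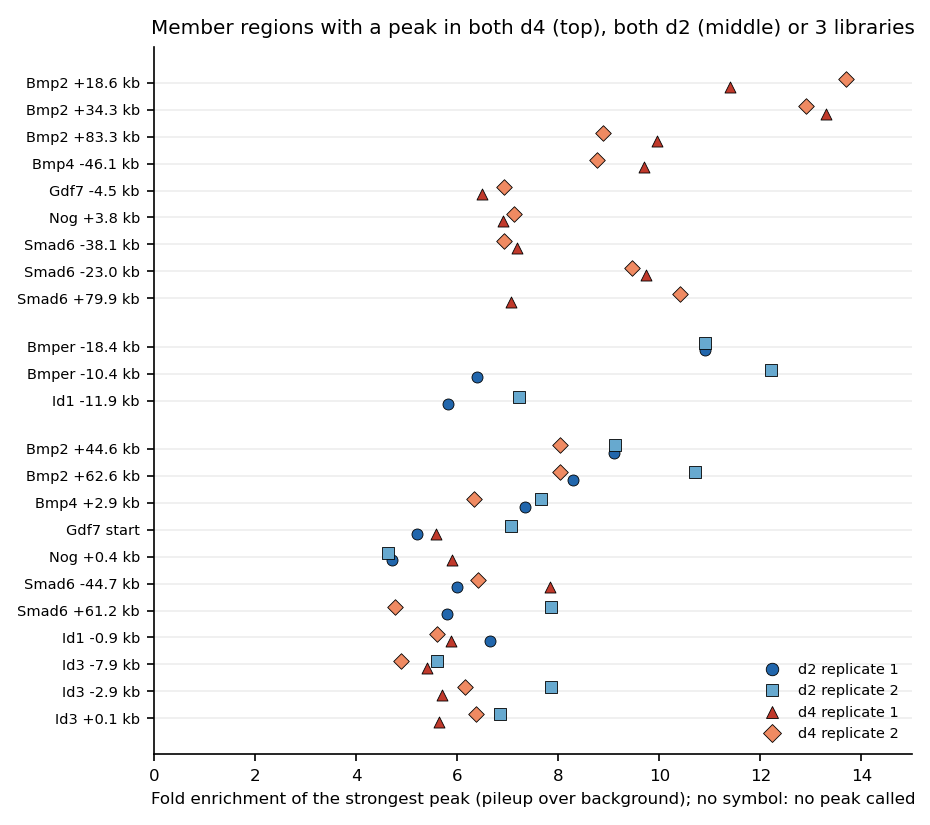
Fold enrichment (horizontal axis, summit pileup over local background) of the strongest peak in each library, for the 9 gained, 3 lost and 11 regions with a peak in 3 of 4 libraries. Each symbol is 1 library, set slightly apart vertically by replicate, and a missing symbol means that no peak was called. The gained regions range from 6.48 to 13.7, with Bmp2 +18.6 kb and +34.3 kb the highest, and all 3 of the Id3 regions lack d2 replicate 1.

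Single-library regions were weaker than the gained ones. Their 26 peaks had a median fold of 5.95 and a median pileup of 13, and the 18 peaks of the gained regions a median fold of 9.17 and a median pileup of 21. The class fixes part of this gap, since a weak peak is more easily missed in a second library.

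For the 14 shared regions, enrichment was compared across libraries after scaling. Pileup over background at the summit was divided by the median of the library over all 11494 shared regions and put on a log2 scale, so 0 is the typical shared region of that library. A region is called higher where both d4 values were above both d2 values, and lower where both were below. Of the 14, 5 were higher (22.5% of all shared regions within 100 kb of a coding start), 4 were lower (19.4% of all) and 5 overlapped. The median difference of the 14 was 0.05, and that of all 11189 was 0.02. With the deposited fold and no scaling, 5 were again higher and 4 lower, but not the same regions, and of all regions 13% were higher and 30.4% lower. The calls of 4 higher and 3 lower regions were kept, the Id1 start and Nog +58.6 kb overlapped, Smad7 -71.5 kb became higher and Smad7 -0.3 kb lower. Lower regions numbered 7 of 17 without d2 replicate 1 and 8 of 18 without d4 replicate 1, where 1 library stands for its day and more regions are compared. Of all regions, 32.1% were lower in each of these settings. Higher regions numbered 7 in both, against 39.9% and 37.9% of all.

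The 5 higher regions were at Bmper, Id1, Smad6, Smad7 and Bmp2. Bmper -19.5 kb had the largest difference, 0.72 on the log2 scale, from -0.85 ± 0.15 (SD, n = 2) at d2 to -0.13 ± 0.39 at d4. The Id1 start differed by 0.53, from -1.23 ± 0.47 to -0.70 ± 0.21, and its lowest value, -1.56, was in d2 replicate 1. Its call rested on -0.85 in d4 replicate 1 against -0.89 in d2 replicate 2, and it was lost on the deposited fold. The Smad6 start differed by 0.51, from -1.27 ± 0.05 to -0.76 ± 0.29. For Smad7 -24.1 kb (0.42) and Bmp2 +2.2 kb (0.40), which lies in the 5′ UTR of Bmp2, d4 values lay close to those of d2 replicate 1 and well above those of d2 replicate 2.

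The 4 lower regions were at Smad6, Bmp2, Nog and Bmper. The ratio at Smad6 -27.8 kb fell by 0.69 on the log2 scale, from -0.23 ± 0.12 to -0.93 ± 0.24. Its summit pileups, which are not scaled for depth, did not fall: they were 15 and 19 at d2 and 20 and 22 at d4. The local background there was 1.11 in both d2 libraries and 2.77 and 2.42 at d4, so a lower ratio does not show a loss of accessibility. The ratio at the Bmp2 start fell by 0.42, from -0.64 ± 0.02 to -1.06 ± 0.28, while 3 regions downstream of it were gained. Summit pileups at the Bmp2 start were nearly level, 26 in both d2 libraries and 24 and 26 at d4. The background rose there, from 2.43 and 2.1 at d2 to 3.7 and 3.06 at d4. Nog +58.6 kb fell by 0.29, with a call that was lost on the deposited fold, and the Bmper start by 0.25. At the Smad6 locus a start region with a higher ratio at d4 and an upstream region with a lower ratio thus stood 27.8 kb apart. Of the overlapping regions, Smad7 -0.3 kb and Smad6 -0.6 kb both differed by 0.01, Smad7 -71.5 kb by -0.06, the Bmp7 start by 0.09 and Id3 -38.1 kb by 0.13. At Smad7 -71.5 kb pileups were 12 and 13 at d2 and 28 and 29 at d4. The backgrounds there were 1.04 and 0.914 at d2 and 2.73 and 2.63 at d4, so pileup and background rose together.

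**Figure D3:**
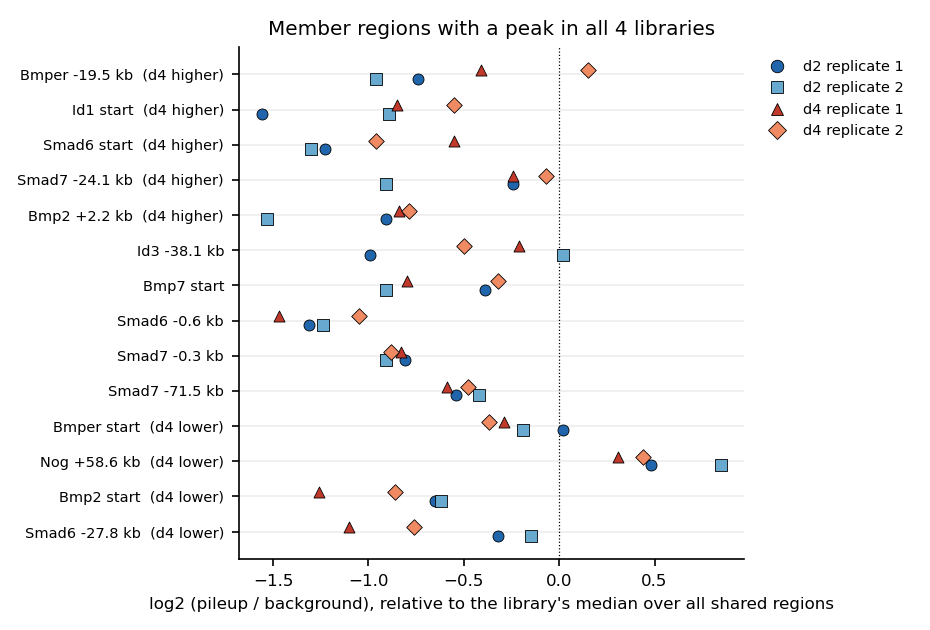
Scaled enrichment of the 14 shared regions, sorted by the difference between d4 and d2. The horizontal axis is log2 of pileup over background relative to the library's median over all shared regions, and each symbol is 1 library. In the 5 regions at the top both d4 values lie above both d2 values, from Bmper -19.5 kb (difference 0.72), and in the 4 at the bottom both lie below, down to Smad6 -27.8 kb (-0.69); on the deposited fold the Id1 start and Nog +58.6 kb overlap instead.

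The regions of these genes lay away from promoters more often than not. A promoter here is within 1000 bp of any annotated transcript start. Promoter regions numbered 19 of 63 (30.2%, 95% Wilson interval 20.2 to 42.4), against 50.9% of all assigned regions. The interval treats the regions as independent, although 14 lay at Smad6 and 11 at Smad7. The share also depends on the number of regions per gene, which was not matched. Of the 9 gained regions 8 were intergenic, and the promoter among them was that of Gm15221. All 3 lost regions were intergenic. Shared regions were promoters in 8 of 14 cases, against 87.7% of all shared regions. The class shares given earlier hold promoters and other regions together. Away from promoters, 8 of 44 member regions were gained, against 2517 of 17212 of all, a smaller gap. Lost there were 3 of 44, against 2915 of 17212. Shared there were 6 of 44, against 1380 of 17212, so the members' share was then the higher one. Gained regions had a median GC content of 56.9%, against 51.5% for all gained regions.

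A nearer start of a noncoding gene or pseudogene was annotated for 32 of the 63 regions. This held for 7 of the 9 gained regions, namely the 3 of Bmp2, the 3 of Smad6 and that of Bmp4, and for none of the 3 lost regions. For Bmp2 the nearer starts belonged to a microRNA gene, Mir3090, and to a small nuclear RNA gene, Gm25258. With starts of any gene type, 2 gained regions, at Gdf7 and Nog, and all 3 lost regions were left to the 10 genes, so the order of gained and lost turned.

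Consensus letters were counted on either strand up to 100 bp from the summit of each region's strongest peak. GATAA was found in 4 of 9 gained regions (44.4%), against 53.5% of all gained regions, and in 13 of all 63 (20.6%), against 17.3% of all assigned regions. The 4 were Bmp2 +18.6 kb with 2 matches, Gdf7 -4.5 kb, Smad6 -38.1 kb and Smad6 -23.0 kb. GGAATG was found in 3 of the 9 (33.3%; 23.1% of all gained) and TGANTCA in 2 (22.2%; 11.4% of all gained). The GC-rich SMAD site GGCGCC was in none of the 9, and it was rare in all gained regions (2.86%). It was in 8 of the 63 (12.7%), close to the 12.3% of all. CCGGAAG, a consensus of ETS factors, was in 2 of the 63 (3.17%, against 6.64% of all), and ATGCAAAT, the POU octamer, in none (1.64% of all). Other forms of the ETS site were not searched, so the share of regions with any ETS site is not known.

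The composite of GGCGCC and GTCT was found in 3 of the 63 regions (4.76%), and in 29 of all 35038 (0.0828%). Its layout is known from Id genes, and Id1 and Id3 were on the list. A higher share among the members was therefore built into the choice of letters and genes, and is no finding about the pathway. All 3 were at Id genes, Id1 +3.2 kb, Id3 -2.9 kb and Id3 +4.3 kb, and their letters are shown above. The composite lay 59, 61 and 9 bp from the summit. Over whole regions the numbers were the same 3 of 63 and 52 of 35038 (0.148%). Of the 27 genes that held the 29 regions, Id2 and Id3 were the only ones with 2. None of the 3 regions was gained, lost or shared: Id1 +3.2 kb and Id3 +4.3 kb were called in d2 replicate 2 only, at folds of 5.85 and 6.97, before BMP4 was added by the protocol. Whether a SMAD protein was bound there was not measured.

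The SMAD palindrome GTCTAGAC was found within 100 bp of the summit in 1 of 63 regions (1.59%), the Smad6 start, and in 59 of all 35038 (0.168%). Over whole regions, a setting chosen after seeing the data, it was also found at Smad7, in 2 of 63 regions (3.17%) and in 107 of all (0.305%). At Smad6 its middle lay 1 bp upstream of the annotated start, in the start region that was higher at d4, and at Smad7 349 bp upstream, in the shared region at -0.3 kb, where the days overlapped after scaling and d4 was lower on the deposited fold. In the RefSeq table of promoters (250 bases before to 50 after a start, GRCm38.p6), 5 of the 10 genes were matched, and the palindrome was in that of Smad6 and in 70 of 32851 promoters in all (0.213%). The palindrome was searched as a SMAD site among genes of a SMAD pathway. A higher share among the members is therefore no finding about the pathway. A match is a description of letters, not of a bound site.

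**Figure D4:**
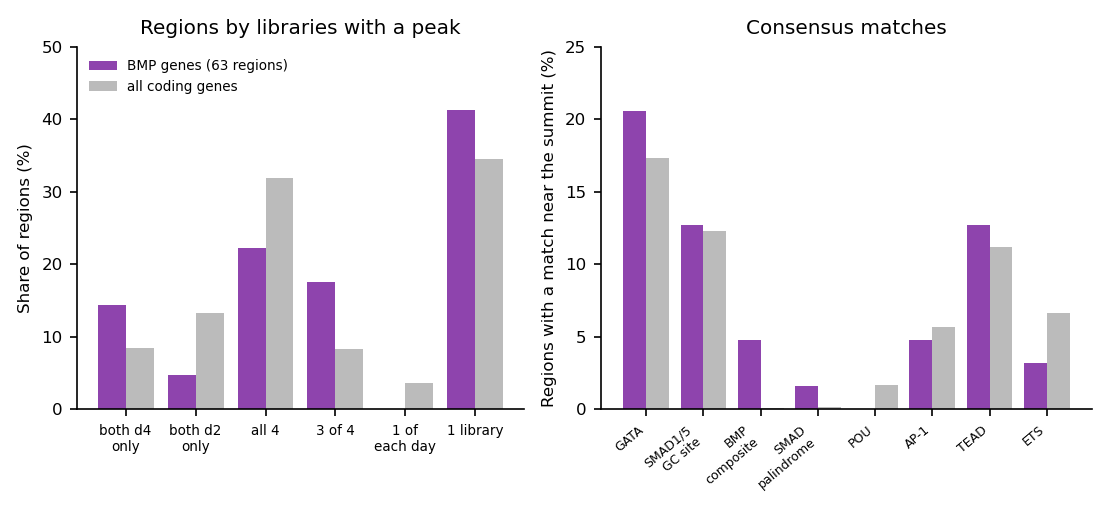
Share of regions in percent, for the 63 regions of the BMP pathway genes (purple) and all 35038 regions within 100 kb of a coding start (gray). The left panel gives the libraries with a peak, with gained regions at 14.3% against 8.48% and lost at 4.76% against 13.2%, and the right panel the consensus letters within 100 bp of the summit, with the BMP composite at 4.76% against 0.0828%. The composite is a layout known from Id genes, and Id1 and Id3 are among the genes, so that gap was built into the choice. The left panel is not matched for promoters, which were fewer among the members.

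A wider list of 48 further BMP pathway genes had as many lost as gained regions. Of these genes, 43 had a region, 148 in all. Gained were 19 (12.8%; 8.48% of all assigned regions), lost 19 (12.8%; 13.2% of all, nearly the same share) and shared 31 (20.9%; 31.9% of all). Only gained regions were found at 10 genes, only lost regions at 9 and both at 4. The 35 regions of antagonists held 6 gained and 4 lost, the 47 of receptors and coreceptors 3 gained and 9 lost (6.38% and 19.1%), and the 30 of targets 5 gained and 2 lost. The 17 regions of further ligands held 2 of each.

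Genes of the wider list with at least 2 gained or 2 lost regions were 7. Smurf1, a ubiquitin ligase that acts on BMP Smads and receptors, had 3 gained regions, with folds between 4.63 and 9.12, and no lost one. The receptor gene Bmpr1b had 3 lost, the strongest with folds of 12.1 and 14.2, and the coreceptor gene Rgma had 3 lost, with folds between 5.99 and 8.75. Grem1, which encodes the antagonist gremlin, had 2 lost, with folds of 7.67 and 8.09 at 83.6 kb from its start and 6.38 and 11.6 at 8.61 kb. Fstl1 and the target gene Msx1 each had 2 gained and 1 lost, and the type I receptor gene Acvr1 2 of each, 1 of the lost regions being at its start.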

How the data were processed

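ATAC-seq peak lists of 4 libraries were used, 2 per time point. Per the methods of the study, paired-end reads of 60 bp were trimmed with cutadapt, aligned to mm10 with Bowtie2, and filtered for mitochondrial, multiply mapped and duplicate reads, and the authors called peaks with MACS2 in each library alone. The stated call names paired-end mode together with a read shift and extension, which that mode ignores; which of them applied was not tested. The deposited files give the fold enrichment as a ratio, the −log10 p and −log10 q of each peak, and its summit. The deposited score, from the q-value, was not used, nor were the authors' comparisons between days.

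Pileup and background were solved from fold and p for 100% of peaks, to within 0.01 in −log10 p, with scripts in Python 3.11.15, numpy 2.4.6 and scipy 1.17.1 that were tested on simulated data. The number of reads per library is unknown; the lowest background, 0.483 to 0.568 at d2 and 0.744 to 0.755 at d4, gives relative coverage. Peaks overlapping by at least 1 bp were merged, and annotation was GENCODE release M 21. Intervals cover counting error only. All 10 genes and each of their gained and lost regions were named, and genes of the wider list with at least 2 gained or 2 lost regions; Hjv of that list was looked up as Hfe2. The genes, lists and letters were chosen with earlier results of these data known. Alternatives were stricter q, the top 15000 peaks, other overlaps, distances, starts and windows, and leaving out each library.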

Additional observations from a re-analysis of the deposited data

How the results depend on the processing

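Of the alternatives, 2 moved the gained count of 9 upward, to 15 with a 50% reciprocal overlap of replicates and to 15 with no distance limit, and starts of any gene type lowered it to 2. The lost count of 3 became 8, 5 and, with the top 15000 peaks per library, 1. With the 50% overlap, single-library peaks of the other day no longer count, which by construction adds gained and lost regions. Shared regions fell from 14 to 3 at −log10 q of at least 10, to 4 with the top 15000 peaks and to 9 with starts of any gene type. Leaving out 1 library gave 11 to 15 gained, 5 to 13 lost, 16 to 18 shared, 6 to 7 higher and 6 to 8 lower regions. At these settings 36.5% to 39.9% of all shared regions were higher and 32.1% to 35.8% lower. The promoter share was 38.1% with promoters within 2500 bp. Merging within 500 bp, distances from the middle of a region, and starts of all transcripts of coding genes (chosen after seeing the data) kept all counts of gained, lost and shared regions within 1.5 times.

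Letters depended on the window. With 50 bp, 250 bp and, chosen after seeing the data, the whole region, GATAA was in 7, 28 and 16 regions, GGCGCC in 4, 15 and 14 and GGAATG in 4, 20 and 16. The composite was in 1 region at 50 bp and in 3 otherwise, GTCTAGAC in 0 at 50 bp, 1 at 100 bp and 2 in whole regions, and TGANTCA in 10 at 250 bp and 6 in whole regions. No paired analysis was possible because no result comes from a test, and the labels do not say that libraries of the same number share a differentiation. A peak near the smallest pileup called, 6 or 7, can be missed in a replicate.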

Other observations

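Some regions lay nearest to the start of 1 of the 10 genes but beyond 100 kb. They numbered 29, with 6 gained (20.7%), 2 lost (6.9%) and none shared. Of all 5872 regions not within 100 kb of a coding start, 18.6% were gained, 17.5% lost and 5.19% shared, so the gained share was near the general one. Bmp2 had 12 of them and 4 of the gained ones. On the upstream side of Bmp2, where no region lay within 100 kb, gained regions stood at 122.2 kb (folds of 11.7 and 9.95 in d4 replicates 1 and 2), 154.2 kb (12.8 and 11) and 224.1 kb (13.8 and 9.34). On the downstream side a gained region stood at 302.9 kb (12.8 and 11.8) and a lost region at 117.8 kb (5.74 and 6.36 at d2). With no limit on distance Bmp2 thus had 7 gained regions and 1 lost.

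Bmp4 gained a region 182.6 kb upstream (8.43 and 10.6), and Smad7, with no gained region within 100 kb, had 1 at 132.9 kb downstream (8.67 and 9.34). Bmper had a further lost region, downstream of its start at 160 kb (6.95 and 7.87 at d2). At such distances the nearest coding start is a label for the place, and no link to the gene was measured.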
